A study of Homo sapiens with 8 samples.

Results

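The miRNAs described here are the guide strands of the miR-26 and miR-101 families, hsa-miR-26a-5p, hsa-miR-26b-5p and hsa-miR-101-3p. They were chosen by name, as miRNAs known to repress EZH2. All 3 had a row in each of the 3 deposited tables of normalized read counts, which together held 945 miRNAs among 1226 features.

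EZH2 is the catalytic subunit of the Polycomb repressive complex that methylates histone H3 on a lysine residue and keeps genes silent. A miRNA guides an Argonaute protein to an mRNA through its seed, the bases near its 5′ end, and the paired mRNA is translated less and degraded sooner. miR-26a, miR-26b and miR-101 pair with the 3′UTR of the EZH2 mRNA, and miR-101 in particular is known for its loss in tumors in which EZH2 is high. Neither EZH2 mRNA nor EZH2 protein was analysed here.

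The cell line was H1299, a lymph node derivative of a non-small cell lung carcinoma that has no p53 of its own. Small RNA was sequenced on an Ion PGM instrument from H1299 cells carrying an empty vector (EV) and from H1299 cells stably expressing the p53 mutant R273H from a pCMV plasmid (R273H), each left untreated or treated with etoposide for 24 h. Etoposide traps topoisomerase on DNA and so breaks it. Each of the 4 groups had 2 libraries. The labels give the dose of etoposide as 10 µM in one protocol and as 10 mM in another. Colonies that resisted G418 gave rise to the R273H cells, whereas the EV cells were infected with their vector in another laboratory, so that the mutant and the history of the lines cannot be told apart. The study calls its replicates biological, but the labels do not say whether they were separate cultures, and p-values here measure the spread between these libraries.

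A library held 234545 to 579367 reads, of which 213007 to 536991 were miRNA reads. miR-21-5p alone took 30.6% to 44.5% of the miRNA reads. The miRNAs of other cell types were scarce. The summed level of blood miRNAs (4 of 6 with a row) lay between 25.7 and 117 reads per 1000000 miRNA reads (RPM), that of muscle miRNAs (3 of 3) between 0 and 59.0, and that of the liver miRNA miR-122-5p between 0 and 32.9. The 5 epithelial miRNAs of the list (miR-200a-3p, miR-200b-3p, miR-200c-3p, miR-141-3p and miR-205-5p) together reached 3.95 to 36.9 RPM, where 3 reads correspond to 5.59 to 14.1 RPM, so that the epithelial markers of a lung carcinoma were close to the limit of detection in these cells.

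The mature sequences show which members can act on the same sites. They are printed 5′ to 3′ from RefSeq (GRCh38.p14), with the seed (bases 2 to 8) in capitals.
hsa-miR-26a-5p: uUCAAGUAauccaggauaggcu
hsa-miR-26b-5p: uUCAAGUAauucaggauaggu
hsa-miR-101-3p: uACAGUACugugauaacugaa
miR-26a and miR-26b share their seed, and over the 21 bases that both have they differ by 2 substitutions, C11U and C21U (miR-26a base first, positions counted from 1 at the 5′ end). Reads that carry a sequencing error at these bases could be assigned to either, and a read that ends before base 21 is told apart by base 11 alone. miR-101 has another seed. The other human miRNAs with the miR-26 seed in RefSeq, miR-4465 and miR-1297, were not analysed here.

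The 3′UTR of EZH2 holds a match to each seed. The annotated 3′UTR (GENCODE 44 on GRCh37, minus strand of chromosome 7) is 263 bases long. The matches are printed as the DNA of the mRNA strand, with the 7 bases that pair with miRNA bases 2 to 8 in capitals and 14 bases upstream and 1 base downstream of them.
miR-26 site, chr7:148504481-148504502: ctttgaataaagaaTACTTGAa
miR-101 site 1, chr7:148504672-148504693: ttcaggaacctcgaGTACTGTg
miR-101 site 2, chr7:148504617-148504638: tctgaatttgcaaaGTACTGTa
The miR-26 match occupies bases 250 to 256 of the 3′UTR, next to its end. The miR-101 matches occupy bases 59 to 65 and 114 to 120. The miR-26 site and the second miR-101 site are followed by an A opposite miRNA base 1 and are 8mers, while the first miR-101 site is a 7mer-m8. TACTTGA was found in 11.6% and GTACTGT in 9.87% of 19403 annotated 3′UTRs, read on the mRNA strand only, and 2.67% held both. Among the 1332 3′UTRs of 210 to 316 bases, 1.43% held the miR-26 match and 1.58% the miR-101 match, and EZH2 was the 1 gene with both. A match is a sequence feature and does not show that a site is used in H1299 cells.

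The same 2 motifs were searched in the 3′UTRs of other genes of the complex. AEBP2, an accessory subunit, had 1 miR-26 match and 2 miR-101 matches in 4110 bases. EED, a core subunit, had 1 miR-101 match in 285 bases, and the histone-binding subunit RBBP7 had 1 in 694 bases. RBBP4 and the accessory subunit JARID2 each had 1 miR-26 match, in 6506 and 1791 bases. No match was found in SUZ12, in EZH1, the paralog of EZH2, or in PHF1, PHF19 and MTF2.

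The members are encoded by 5 hairpins, all in introns of protein-coding genes and on the strand of the host (GENCODE 44, GRCh37). miR-26a-5p comes from MIR26A1 in CTDSPL (chr3:38010895-38010971) and from MIR26A2 in CTDSP2 (chr12:58218392-58218475). miR-26b-5p comes from MIR26B in CTDSP1 (chr2:219267369-219267445). The 3 hosts of miR-26 are paralogs that encode small C-terminal domain phosphatases. miR-101-3p comes from MIR101-1 in JAK1 (chr1:65524117-65524191) and from MIR101-2 in RCL1 (chr9:4850291-4850381). The RefSeq hairpins of both genes of miR-26a hold the same 5p sequence, and those of both genes of miR-101 the same 3p sequence, so the reads of these members cannot be divided between the loci.

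All 3 guide strands were well detected in H1299 cells. miR-26a-5p was among the 19 most abundant miRNAs of every library (rank 10 to 19), miR-101-3p ranked 29 to 36, and miR-26b-5p ranked 49 to 66. Together they took 1.20% to 2.65% of the miRNA reads. Reads of different miRNAs are compared here as reads, since ligation captures some sequences better than others.

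miR-26a-5p had 10415 and 18714 RPM in untreated EV cells, 20380 and 18529 in etoposide-treated EV cells, 9424 and 17983 in untreated R273H cells, and 17305 and 20163 in etoposide-treated R273H cells (replicates 1 and 2). Each of the 3 neighbouring pairs of groups in the order of their means overlapped. The range was set by replicate 1 of each untreated group, which was the low library in EV as in R273H. These pairs of untreated replicates differed 1.80-fold in EV and 1.91-fold in R273H, whereas the etoposide replicates differed 1.10-fold and 1.17-fold. Counting error was small beside this: the log2 difference between the untreated EV replicates was 0.85, with a counting standard error of 0.029. Of 99 miRNAs with a mean of at least 100 reads, 92.9% differed less between the untreated EV replicates than miR-26a-5p did, and 86.9% differed less between the untreated R273H replicates.

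miR-26b-5p had 594 and 777 RPM in untreated EV cells, 1507 and 1328 in etoposide-treated EV cells, 575 and 1070 in untreated R273H cells, and 1352 and 1840 in etoposide-treated R273H cells. All 4 etoposide libraries lay above all 4 untreated libraries. Within the treated and within the untreated libraries, EV and R273H overlapped.

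miR-101-3p had 2579 and 2794 RPM in untreated EV cells, 4037 and 3768 in etoposide-treated EV cells, 1990 and 2606 in untreated R273H cells, and 3511 and 4477 in etoposide-treated R273H cells. Here too the 4 etoposide libraries lay above the 4 untreated ones, and EV and R273H overlapped. Of 334 miRNAs 24 (7.19%) were higher in all 4 etoposide libraries than in all 4 untreated ones in RPM, and 0 (0%) were lower.

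**Figure D1:**
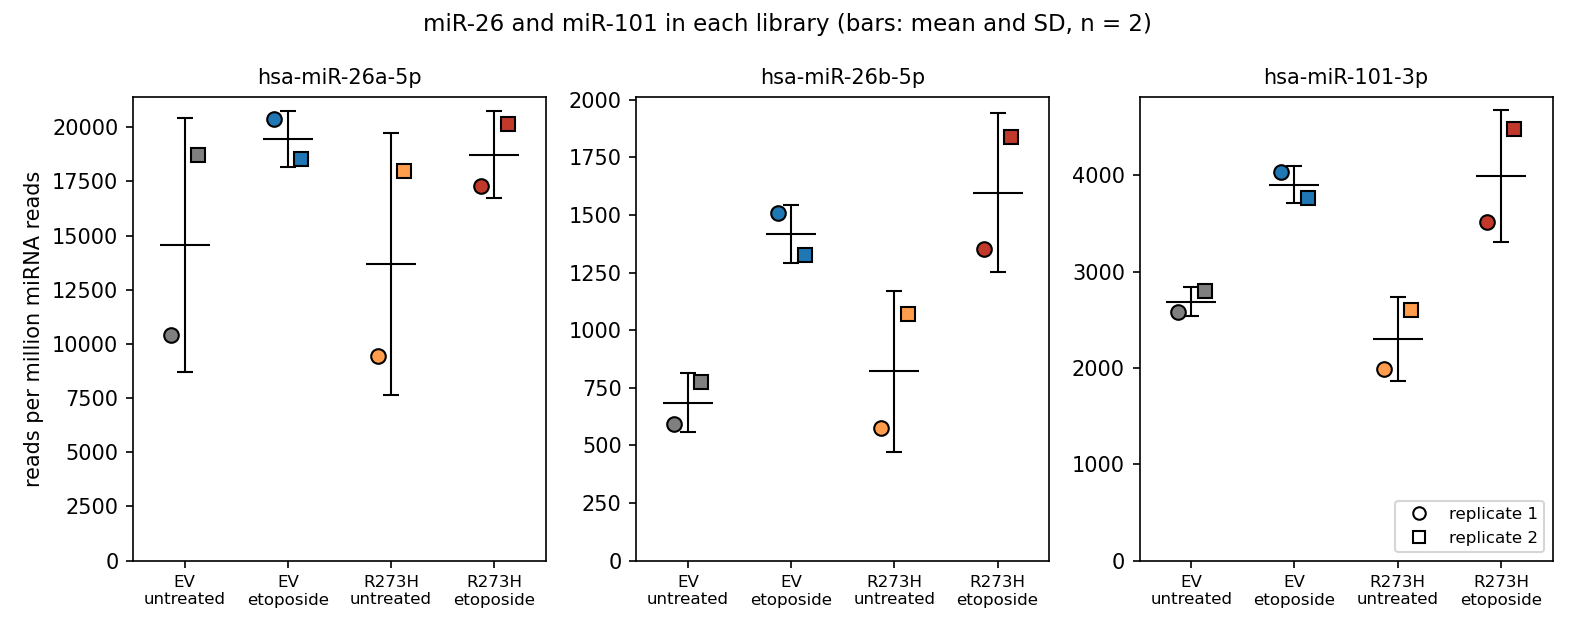
RPM of the 3 guide strands in each library (circles, replicate 1; squares, replicate 2), with the mean and SD of each group (n = 2). miR-26a-5p is low in replicate 1 of both untreated groups (10415 and 9424), and miR-26b-5p and miR-101-3p are higher in the 4 etoposide libraries than in the 4 untreated ones.

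The first comparison asked whether mutant p53 changes miRNA levels in untreated cells. None of the 3 members differed between R273H and EV beyond the spread of the replicates. By limma on log2(normalized count + 1), 62 of 304 miRNAs (20.4%) had an adjusted p under 0.05, and 0 of the 3 members were among them. At an unadjusted p under 0.05 there were 32.6% of the miRNAs and 0 members, and edgeR and DESeq2 called 0 members. Of the 62 called miRNAs 33 were higher and 29 lower in R273H, a split that moved to 9 and 36 with equal upper quartiles of the whole table, to 16 and 23 with equal totals, to 15 and 28 with edgeR and to 11 and 23 with DESeq2. With the replicate number as a block, or without either untreated R273H library, 0 miRNAs were called, and 39 without untreated EV replicate 2.

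In the deposited unit, reads scaled by the size factor of their library, miR-26a-5p had 3872 and 7451 normalized counts in EV and 4369 and 6501 in R273H. The means were 5661 ± 2531 and 5435 ± 1507 (SD, n = 2), and the log2 fold change was -0.01 (95% confidence interval -0.66 to 0.63, adjusted p = 0.979). The 2 R273H libraries lay between the 2 EV libraries. The interval corresponds to a level in R273H of 0.635 to 1.55 times that in EV.

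miR-26b-5p had 221 and 309 normalized counts in EV and 267 and 387 in R273H, a log2 fold change of 0.30 (-0.39 to 0.99, adjusted p = 0.570). The groups overlapped. miR-101-3p had 959 and 1112 in EV and 922 and 942 in R273H, a log2 fold change of -0.15 (-0.73 to 0.44, adjusted p = 0.751). Its groups did not overlap, which held for 187 of the 304 miRNAs (61.5%), and the EV libraries lay only slightly higher. The intervals of all 3 members exclude a 2-fold change in either direction under this scaling and this fit, which borrows spread from other miRNAs. Without the intensity trend the standard error grew from 0.31 to 0.46 for miR-26a-5p and from 0.33 to 0.40 for miR-26b-5p. The exclusion therefore depends on the trend as well.

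**Figure D2:**
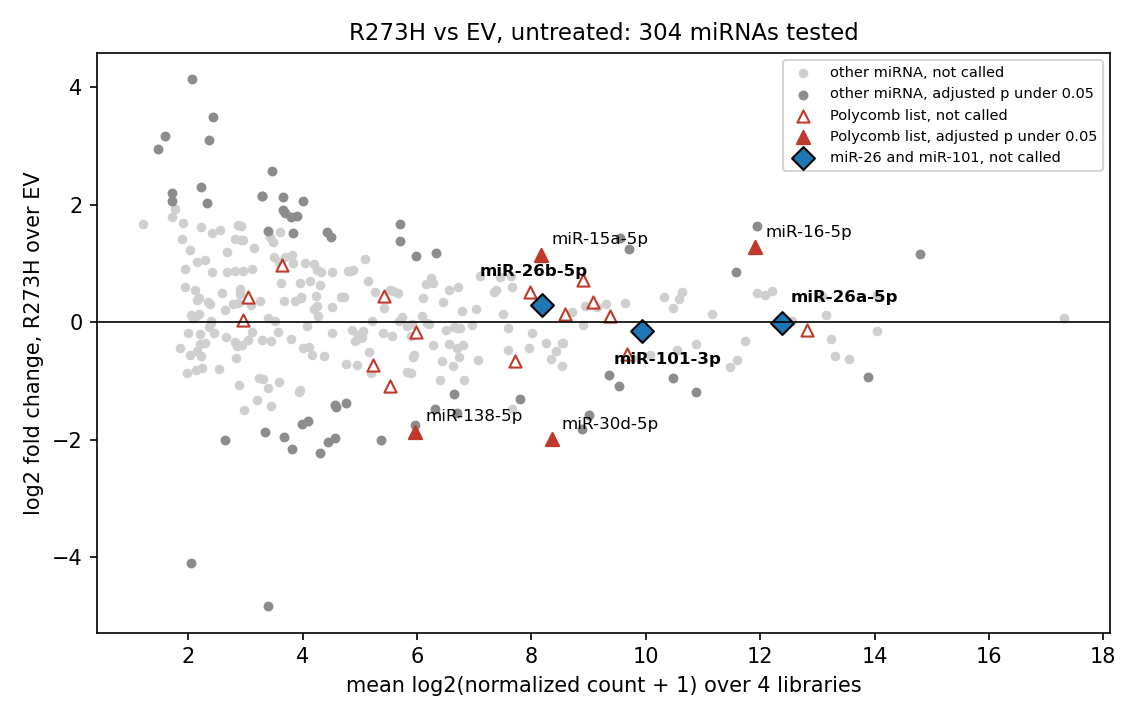
Log2 fold change of R273H over EV in untreated cells against the mean log2(normalized count + 1) over 4 libraries, for the 304 miRNAs tested (dark points, adjusted p under 0.05). The 3 members (diamonds) lie near 0, while 4 other miRNAs of the Polycomb list (filled triangles) passed the test, 2 in each direction.

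The second pair of comparisons set etoposide against untreated cells within each line. No member was called in either. In EV cells limma called 2 of 296 miRNAs (0.676%), both lower, and 0 of the 3 members. At an unadjusted p under 0.05 there were 8.11% of the miRNAs and 0 members. In R273H cells limma called 0 of 341 (0%), with 31 at an unadjusted p under 0.05 (9.09%) and 0 members among them. Here edgeR called 0 miRNAs and DESeq2 called 1, and limma called 9 without treated R273H replicate 1.

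miR-26b-5p had the largest of the members' etoposide differences in EV cells. Its normalized counts were 206 and 294 in untreated and 306 and 473 in treated EV cells, without overlap, as for 34.1% of the miRNAs tested. The log2 fold change was 0.63 (-0.06 to 1.32, unadjusted p = 0.0750, adjusted p = 0.651, limma). In R273H cells its normalized counts were 346 and 514 in untreated and 565 and 477 in treated cells, with a log2 fold change of 0.30 (-0.43 to 1.02, adjusted p = 0.826). These groups overlapped, while those of 39.3% of the miRNAs tested in R273H cells did not.

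miR-101-3p had 893 and 1057 normalized counts in untreated and 820 and 1343 in treated EV cells, and its log2 fold change was 0.11 (-0.62 to 0.84, adjusted p = 0.993). In R273H cells it had 1195 and 1252 in untreated and 1467 and 1160 in treated cells, with a log2 fold change of 0.09 (-0.64 to 0.82, adjusted p = 0.972). Treated and untreated libraries overlapped in both lines.

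miR-26a-5p had 3607 and 7077 normalized counts in untreated and 4139 and 6605 in treated EV cells, with a log2 fold change of 0.05 (-0.90 to 1.00, adjusted p = 0.993). In R273H cells it had 5661 and 8637 in untreated and 7229 and 5222 in treated cells, with a log2 fold change of -0.19 (-1.07 to 0.70, adjusted p = 0.954). The groups overlapped in both lines.

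The separation of treated from untreated libraries in RPM is thus absent or smaller in normalized counts. With the libraries scaled to equal totals of miRNA reads, the median log2 fold change of all miRNAs tested was 0.39 in EV and 0.71 in R273H, while it was -0.03 and 0.02 with the deposited size factors. The members moved with the median. Under equal totals miR-26b-5p had log2 fold changes of 1.05 in EV and 1.01 in R273H. Those of miR-101-3p were 0.54 and 0.80, and those of miR-26a-5p 0.48 and 0.52. The adjusted p was 0.798 for each member in EV and 0.310 to 0.318 in R273H (limma). Unadjusted p in EV was 0.0212 for miR-26b-5p, 0.116 for miR-26a-5p and 0.124 for miR-101-3p. In R273H it was 0.0263 to 0.0451 over the members, so that under this scaling it fell below 0.05. Relative to the median of the same scaling, miR-26b-5p was at 0.67 in EV and 0.30 in R273H under equal totals, and at 0.66 and 0.28 with the deposited size factors. miR-101-3p was at 0.15 and 0.09 relative to the median under equal totals, and miR-26a-5p at 0.09 and -0.19. Whether the amount of miRNA per cell changed with etoposide cannot be read from these libraries.

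**Figure D3:**
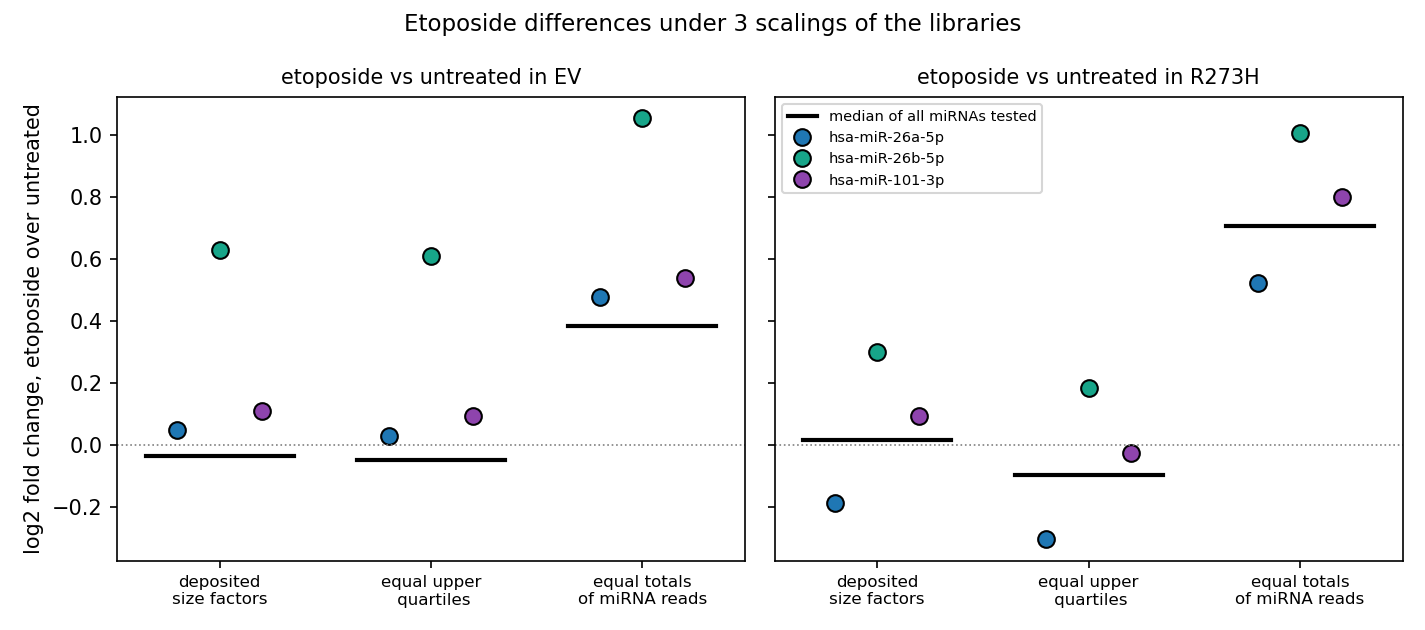
Log2 fold change of etoposide over untreated cells for the 3 members (points) and the median of all miRNAs tested (bars), with the deposited size factors, with equal upper quartiles of the miRNAs tested and with equal totals of miRNA reads. Members and median rise together under equal totals, to medians of 0.39 in EV and 0.71 in R273H, and miR-26b-5p stays the highest of the 3 under each scaling.

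R273H and EV were also compared under etoposide, on the reads of all 8 libraries with edgeR, since no deposited table holds this comparison. Of 334 miRNAs 75 were called (22.5%), and 0 of the 3 members, and DESeq2 also called 0 members. At an unadjusted p under 0.05 there were 32% of the miRNAs and 0 members. Of the 75 called 27 were higher and 48 lower in R273H, a split that turned to 47 and 23 with equal upper quartiles, to 13 and 11 with library sizes alone, and to 26 and 27 without a filter. Without treated EV replicate 2, treated R273H replicate 1 or treated R273H replicate 2, 33, 23 and 27 miRNAs were called. The log2 fold change of R273H over EV was -0.42 for miR-26a-5p (-1.16 to 0.33, adjusted p = 0.498), -0.21 for miR-26b-5p (-0.86 to 0.44, adjusted p = 0.712) and -0.35 for miR-101-3p (-1.02 to 0.32, adjusted p = 0.536). All 3 values are below 0, but those of miR-26b-5p and miR-101-3p turn to 0.17 and 0.03 when library sizes alone set the scale, which shifts the median of all miRNAs by 0.31.

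The difference of the etoposide responses, R273H minus EV, was tested in the same fit. It was -0.19 for miR-26a-5p (-1.25 to 0.86), -0.35 for miR-26b-5p (-1.27 to 0.58) and -0.02 for miR-101-3p (-0.97 to 0.93), each with an adjusted p of 1.00. Of the 334 miRNAs 0 were called (0%), with 12 at an unadjusted p under 0.05 (3.59%, 0 members) and 0 called by DESeq2. As ratios of the 2 responses the intervals reach from 0.413 to 1.91 over the members, and ratios within a member's interval were not excluded.

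**Figure D4:**
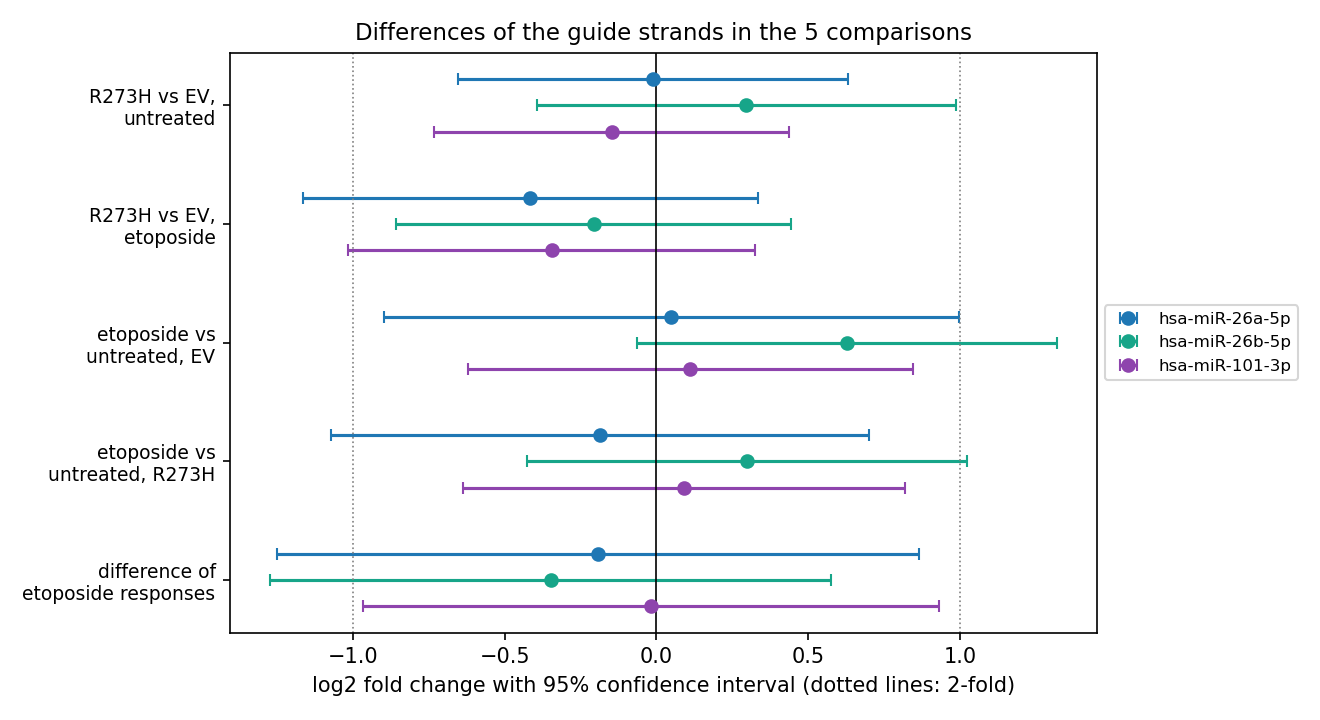
Log2 fold changes of the 3 members with their 95% confidence intervals in the 5 comparisons (limma for the 3 deposited tables, edgeR for R273H against EV under etoposide and for the difference of responses). Every interval includes 0, and miR-26b-5p in EV cells under etoposide comes closest to excluding it (-0.06 to 1.32).

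The ratio of miR-26b to miR-26a needs no scaling between libraries. It was examined after the values above had been seen and is given as a description. miR-26b-5p made up 5.40% (95% Wilson interval 4.85 to 6.00) and 3.98% (3.47 to 4.57) of the miR-26 guide reads in the untreated EV libraries, and 6.89% (6.19 to 7.65) and 6.69% (6.13 to 7.29) in the treated ones. In R273H cells its share was 5.75% (5.11 to 6.47) and 5.61% (5.12 to 6.15) untreated, and 7.25% (6.74 to 7.79) and 8.36% (7.77 to 9.004) treated. The share was higher in all 4 etoposide libraries than in all 4 untreated ones. Among 4851 pairs of miRNAs with a mean of at least 100 reads, the ratio separated treated from untreated libraries in this way in 241 (4.97%). The other ratios between members overlapped between treated and untreated libraries. Reads of miR-101-3p per read of miR-26b-5p were 2.44 to 4.34 in untreated and 2.43 to 2.84 in treated libraries. Reads of miR-26a-5p per read of miR-101-3p were 4.04 to 6.90 in untreated and 4.50 to 5.05 in treated libraries. The Wilson intervals of the share cover counting error only.

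**Figure D5:**
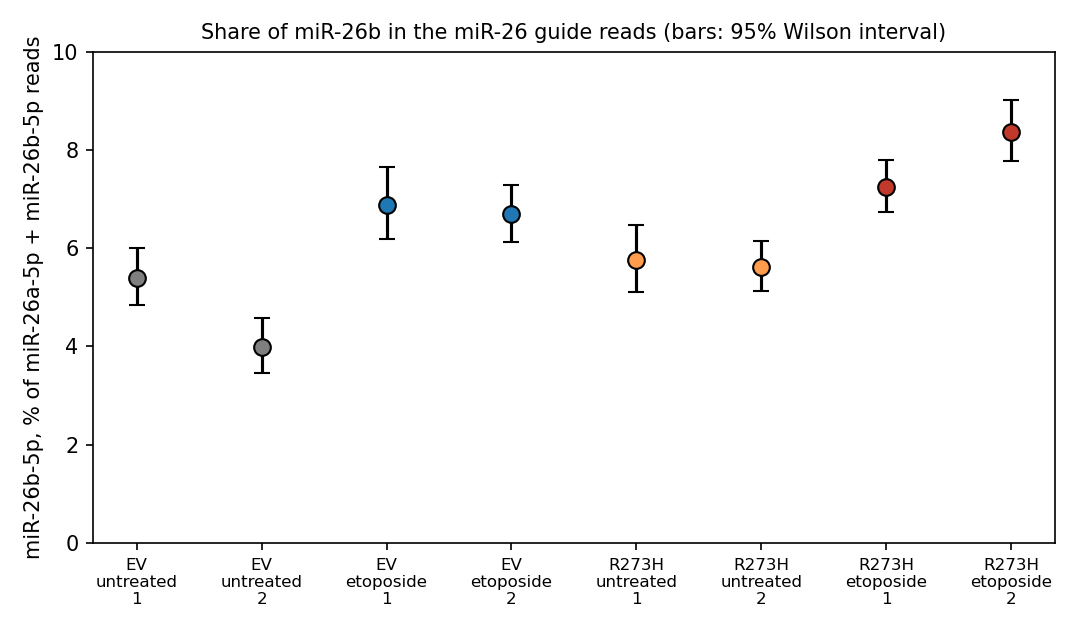
Share of miR-26b-5p in the reads of miR-26a-5p and miR-26b-5p together, in percent, for each library, with its 95% Wilson interval. The 4 untreated libraries lie between 3.98% and 5.75% and the 4 etoposide libraries between 6.69% and 8.36%.

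The other arms of the hairpins, which are mostly degraded when the guide is loaded, gave few reads. Over the 8 libraries miR-26a-5p had 48695 reads against 33 of its other arms, a share of 99.9% for the guide. miR-101-3p had 9608 reads against 42 of miR-101-5p (99.6%). This share sets the guide of both miR-101 loci against an arm that RefSeq lists for MIR101-1 alone. No other arm of MIR101-2 was counted, so it may be too high. miR-26b-5p had 3337 against 82 of miR-26b-3p, and its share of 97.6% (95% Wilson interval 97.0 to 98.1) was the lowest of the 3. The other arms of miR-26a are printed because they, unlike the guide, tell the 2 loci apart (RefSeq, bases that differ in capitals).
hsa-miR-26a-1-3p: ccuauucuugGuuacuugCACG
hsa-miR-26a-2-3p: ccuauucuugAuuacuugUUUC
They differ at 5 of 22 bases. miR-26a-1-3p, from MIR26A1, had 15 reads in all, and miR-26a-2-3p, from MIR26A2, had 18, so at this depth both loci were represented and neither could be called the main source.

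miR-101-5p had 1.38 and 3.19 normalized counts in untreated EV cells and 7.18 and 8.89 in untreated R273H cells, from 2, 2, 7 and 10 reads. The groups did not overlap, as for 61.5% of the miRNAs tested. The log2 fold change was 1.51 (0.21 to 2.81, unadjusted p = 0.0247, adjusted p = 0.0883, limma), where 32.6% of the miRNAs had an unadjusted p under 0.05. The adjusted p was 0.0393 without untreated EV replicate 2 and 0.283 to 0.299 without each of the other 3 libraries. With all libraries the alternatives gave log2 fold changes of 0.85 to 1.83 with adjusted p of 0.0576 to 0.406, the highest with DESeq2. The guide miR-101-3p, which comes from MIR101-1 and MIR101-2 alike, had a log2 fold change of -0.15 in the same comparison. miR-26b-3p had 8.31 and 17.5 normalized counts in EV and 9.23 and 3.56 in R273H, with a log2 fold change of -0.94 (adjusted p = 0.263).

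Other miRNAs reported to target EZH2 or another Polycomb subunit were examined as 2 lists, drawn up with earlier results of these data known. Of 18 miRNAs listed for EZH2 besides the members (let-7, miR-98, miR-138, miR-25, miR-30d and others), 15 had a row and 13 passed the filter on low counts. In untreated cells 0 of the 13 were higher and 2 were lower in R273H, against 10.9% higher and 9.54% lower among all miRNAs tested. The median log2 fold change of the 13 was -0.17, and that of all 304 miRNAs 0.10. Most of the 13 were let-7 members or miR-98, and the median was the value of let-7b-5p.

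miR-30d-5p had 684 and 618 normalized counts in EV and 147 and 180 in R273H, far apart, and fell by 1.99 on the log2 scale (standard error 0.31, adjusted p = 0.000315, limma). miR-138-5p, abundant in neurons, had 121 and 116 in EV and 30.8 and 32.9 in R273H and fell by 1.87 (standard error 0.38, adjusted p = 0.00287). Both calls in untreated cells were lost with the replicate number as a block (adjusted p = 0.0617 for each, limma), as were all others of that comparison. Leaving out each library in turn gave log2 fold changes of -2.14 to -1.84 for miR-30d-5p and -1.91 to -1.82 for miR-138-5p. Under etoposide miR-30d-5p and miR-138-5p also were lower in R273H by edgeR, with log2 fold changes of -1.58 (adjusted p = 0.000156) and -1.54 (adjusted p = 0.000526). In RPM under etoposide, miR-138-5p was at 667 and 237 in EV and at 138 and 232 in R273H, so that the lower EV library and the higher R273H library nearly met. Both of these calls under etoposide were lost with library sizes alone (adjusted p = 0.0665 for miR-30d-5p and 0.167 for miR-138-5p), and that of miR-138-5p without treated R273H replicate 1 (adjusted p = 0.0577).

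Under etoposide 5 of the 13 were lower and 0 higher in R273H, against 14.4% and 8.08% of all miRNAs tested, and the median of the 13 was -0.90 beside 0.05 for all. The other 3 were members of the let-7 family, which represses growth-promoting mRNAs such as those of RAS genes: let-7d-5p (log2 fold change -1.23, adjusted p = 0.0129), let-7f-5p (-0.96, adjusted p = 0.0287) and let-7g-5p (-0.90, adjusted p = 0.0356). Members of let-7 differ by few bases, and reads may be shared between them. Since let-7 members and miR-98 made up most of the 13, these are not independent, and the median was the value of let-7g-5p. Outside let-7 and miR-98, miR-30d-5p and miR-138-5p were lower as given above, while miR-25-3p was at -0.12 and miR-137 at 0.03. The RPM of let-7g-5p overlapped between EV (1230 and 836) and R273H (495 and 946). The 3 let-7 calls were lost with upper quartile scaling, with library sizes alone and without a filter (adjusted p of 0.0606 to 0.540 over these fits), and without treated EV replicate 2 or either treated R273H library (0.109 to 0.346). That of let-7f-5p was also lost with the replicate number as a block (0.0502), and that of let-7g-5p with DESeq2 (0.0518) and without treated EV replicate 1 (0.0514).

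Of 8 miRNAs listed for the Polycomb subunits BMI1, RING1B or SUZ12, 6 were tested. In untreated cells 2 were higher and 0 lower in R273H, with a median log2 fold change of 0.85, against 10.9% higher, 9.54% lower and a median of 0.10 among all miRNAs tested. They were miR-16-5p and miR-15a-5p, which can come from a shared cluster and target cell cycle mRNAs. miR-16-5p had 2584 and 2386 normalized counts in the EV libraries, against 6073 and 5926 with the mutant, and rose by 1.27 on the log2 scale (adjusted p = 0.00287, limma). miR-15a-5p had 188 and 198 against 483 and 382, and rose by 1.15 (adjusted p = 0.0144). Without the trend their adjusted p was 0.0576 and 0.0762, and with equal upper quartiles that of miR-15a-5p was 0.0908. With the replicate number as a block it was 0.0617 for miR-16-5p and 0.0774 for miR-15a-5p (limma). Leaving out each library in turn gave log2 fold changes of 1.21 to 1.33 for miR-16-5p and 0.98 to 1.32 for miR-15a-5p. Under etoposide miR-15a-5p (0.94, adjusted p = 0.0284) and miR-128-3p (0.88, adjusted p = 0.0417) were higher in R273H by edgeR and 0 of the 6 were lower, against 8.08% higher and 14.4% lower among all, and the median of the 6 was 0.43 beside 0.05. The call of miR-15a-5p was lost with library sizes alone (0.0665) and without treated EV replicate 2 or either treated R273H library (0.0709 to 0.214). That of miR-128-3p was lost with DESeq2, without a filter, with the block, without either untreated EV library and without replicate 1 of either treated group (0.0546 to 0.516). No miRNA of either list was called for etoposide in EV or in R273H cells or for the difference of responses (0 of 19 each, beside 0.676%, 0% and 0% of all miRNAs tested), and 1 of the 19 had an unadjusted p under 0.05, in R273H cells.

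The miRNAs other than the members whose profile over the 8 libraries was most like that of each member were ranked. The measure was the root mean square difference of mean-centred log2(RPM + 1). The ranking covered 234 miRNAs with a mean of at least 10 reads, and the members were left out of it. For miR-26a-5p they were miR-148b-3p (0.24), miR-425-5p (0.25) and miR-301a-3p (0.26), where the median over the 234 was 0.61. For miR-26b-5p they were miR-148a-3p (0.22), miR-374a-5p (0.24) and miR-32-5p (0.26). For miR-101-3p they were miR-301a-3p (0.14), miR-221-5p (0.18) and let-7e-5p (0.20). The members were nearer to each other than the median miRNA was, at 0.25 between miR-26a-5p and miR-101-3p, 0.29 between miR-26b-5p and miR-101-3p and 0.32 between miR-26a-5p and miR-26b-5p, so that miR-26a-5p was closer to miR-101-3p than to miR-26b-5p. The values share 8 libraries and a scale set by total reads, and are a description.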

How the data were processed

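Small RNA of 8 H1299 libraries was sequenced by the authors on an Ion PGM, and trimmed reads were aligned to miRBase 20 and the genome (hg19 per the labels). The deposited normalized signal is the count of a feature scaled by the authors with DESeq, separately for each of 3 tables. The deposited results of the authors' own comparisons (group means, fold changes, p-values) were not used. Each value (100%, tolerance 0.006) equalled a whole number of reads times a constant of its library, and the recovered reads of a shared library differed between tables for 0 features.

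The tables were fitted with limma 3.58.1 in R 4.3.3 (log2 of the normalized count plus a pseudocount of 1, intensity trend, mean of at least 3), a scale that understates changes of low miRNAs. Contrasts over all 8 libraries used the quasi-likelihood test of edgeR 4.0.16 with TMM on recovered reads (mean of at least 3). Calls needed a Benjamini-Hochberg adjusted p under 0.05 over all miRNAs tested. An exact permutation test of 2 against 2 libraries cannot go under p = 0.333. The fits were also run on simulated counts with changes far larger than the members' estimates, which does not bear on small changes. Alternatives were other pseudocounts, filters and scalings, DESeq2 1.42.0, the replicate block, and leaving out each library. Equal upper quartiles of the miRNAs tested were added after the data were seen.

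The members and lists were chosen with earlier results of these data known. Named are the members, the other arms of their hairpins, the miRNAs of the Polycomb list called in a comparison, and 3 miRNAs of like profile for each member. All 3 members matched RefSeq. Target sites were read from GRCh37. Wilson intervals (95%) and the floor of 3 reads cover counting error only. Python 3.11.15, numpy 2.4.6, pandas 2.3.3 and statsmodels were used otherwise.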

Additional observations from a re-analysis of the deposited data

Results flagged for a closer look

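The other arms of miR-26a lay on opposite sides of untreated cells after etoposide in the 2 lines, in the deposited normalized counts. In EV cells miR-26a-1-3p had 0.64 and 0 normalized counts untreated and 3.81 and 1.97 treated, a difference of the means of 2.57. In R273H cells it had 3.99 and 2.36 untreated and 0.82 and 1.48 treated, a difference of -2.025. miR-26a-2-3p had 1.29 and 0 untreated and 1.91 and 2.95 treated in EV cells, a difference of 1.785, and 9.31 and 2.36 untreated and 0 and 1.48 treated in R273H cells, a difference of -5.095. In RPM the R273H groups overlapped for both: miR-26a-1-3p had 6.64 and 4.92 untreated and 1.97 and 5.73 treated, and miR-26a-2-3p had 15.5 and 4.92 untreated and 0 and 5.73 treated. Of the 4 differences only that of miR-26a-2-3p in R273H cells passed the filter on low counts and could be tested, with a log2 fold change of -1.90 (95% confidence interval -3.98 to 0.18, adjusted p = 0.510, limma). The difference between the lines was not tested, since both miRNAs were below the filter on low reads in the fit of 8 libraries. A library held at most 7 reads of either, and most counts were at or under 3 reads, the limit used here.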

How the results depend on the processing

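Of the 135 values of the members under alternatives with all libraries, 123 kept their direction and side of the threshold, 12 changed direction and 0 passed the threshold. Of the 84 values with 1 library left out, 18 changed direction and 0 passed. The lowest adjusted p was 0.177, for miR-101-3p in R273H against EV with equal upper quartiles of the whole table, which shifted the median of all miRNAs by -0.34. The log2 values that changed direction were as follows, and the cause was not tested. With equal upper quartiles, miR-26b-5p was -0.047 in R273H against EV untreated and 0.10 under etoposide. With equal upper quartiles of the miRNAs tested, miR-26a-5p was 0.065 in R273H against EV and miR-101-3p -0.024 for etoposide in R273H. With edgeR miR-26a-5p was -0.0063 for etoposide in EV, and with equal totals 0.52 in R273H. With library sizes alone, miR-26b-5p was 0.17 and miR-101-3p 0.033 in R273H against EV under etoposide, and miR-26a-5p was 0.033 and miR-101-3p 0.26 for the difference of responses, where miR-101-3p was 0.10 without a filter.

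With the replicate number as a block the members stayed uncalled (0 of 15 values, lowest adjusted p = 0.417), and miR-101-3p changed direction for the difference of responses (0.0047). Deviations of same-numbered libraries over 237 miRNAs correlated at 0.06 between the untreated groups and at -0.38 between the treated groups. Within EV the correlation was 0.01, and within R273H 0.09. These values do not show a pairing by replicate number, but they cannot exclude a batch shared by some libraries. For miR-26a-5p in R273H against EV untreated, the block lowered the standard error from 0.31 to 0.18.

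Of miRNAs called in R273H against EV, 62 became 39 with equal totals, 39 without the trend, 34 with DESeq2 and 0 with the block. For etoposide in EV, 2 became 0 with equal totals and 1 without the trend, with edgeR or with DESeq2. For etoposide in R273H, 0 became 2 with a mean of at least 10, equal upper quartiles or equal totals, and 1 with DESeq2. Under etoposide, 75 became 47 with DESeq2 and 24 with library sizes alone.

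Leaving out each library gave, in R273H against EV, -0.48 to 0.46 for miR-26a-5p, 0.030 to 0.56 for miR-26b-5p and 0 to 51 called miRNAs. For etoposide in EV it gave -0.44 to 0.54 for miR-26a-5p, 0.32 to 0.94 for miR-26b-5p, -0.24 to 0.47 for miR-101-3p and 0 to 1 called. For etoposide in R273H it gave -0.49 to 0.12 for miR-26a-5p, 0.014 to 0.58 for miR-26b-5p, -0.077 to 0.26 for miR-101-3p and 0 to 9 called. In R273H against EV under etoposide it gave -0.68 to -0.11 for miR-26a-5p, -0.46 to 0.071 for miR-26b-5p and 23 to 75 called. For the difference of responses it gave -0.72 to 0.19 for miR-26a-5p, -0.44 to 0.31 for miR-101-3p and 0 to 1 called. With 1 library left in a group, that library is assumed to vary like the others. With 2 libraries a group, changes within the intervals above were not excluded.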
